A study of Mus musculus with 8 samples.

Results

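The Tristetraprolin family was taken as the 3 gene symbols Zfp36, Zfp36l1 and Zfp36l2 of a table of 23143 gene symbols, chosen by name and followed over all 8 libraries. All 3 members passed the filter on low values (a mean of 10 or more normalized counts over the libraries), as did 12166 of all genes. The proteins of this family are RNA-binding proteins with a tandem CCCH zinc finger domain, in which each finger holds a zinc ion with cysteine and histidine residues. They bind AU-rich elements in the 3′ untranslated regions of short-lived mRNAs, such as those of cytokines, and recruit the CCR4-NOT deadenylase and decapping factors, so that the bound mRNA is degraded. Tristetraprolin, the product of Zfp36, is known in macrophages as a brake on TNF production that is itself induced by LPS and inactivated by phosphorylation through MAPKAPK2. ZFP36L1 (also called BRF1) and ZFP36L2 (BRF2) bind the same kind of element and are best known for roles in development and in the cell cycle of lymphocyte precursors.

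RNA was obtained from RAW264.7 cells, a mouse macrophage line transformed by Abelson leukemia virus, either unstimulated (0 min) or stimulated with 100 ng/ml LPS, the endotoxin of E. coli that is sensed by Toll-like receptor 4, for 15, 30, 45, 60, 75, 90 or 120 min. No group carried a genetic change, and all were grown in the same medium. With 1 library for each time point there is no replicate error to set a difference against, so the time points were not tested, and the 95% intervals given with ratios cover counting error only. Ribosomal RNA had been depleted rather than polyadenylated RNA selected. The methods describe total RNA, while the labels give the RNA fraction as cytoplasmic.

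In mouse (GRCm38) each member has 2 exons and lies on the minus strand. Zfp36 is at chr7:28376784-28379228, with a coding sequence of 960 bases and a 3′ untranslated region of 774 bases. Zfp36l1 is at chr12:80107760-80113013, with a coding sequence of 1017 bases and a 3′ untranslated region of 1835 bases. For Zfp36l2, at chr17:84183924-84187947, the values are 1455 and 1822 bases. The coding sequence of the first zinc finger (annotated GENCODE transcripts, 5′ to 3′) is shown because this domain defines the family, with the codons of the zinc-binding cysteines and histidine in capitals.
Zfp36, codons 101 to 120: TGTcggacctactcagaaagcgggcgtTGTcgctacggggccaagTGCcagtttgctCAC
Zfp36l1, codons 120 to 139: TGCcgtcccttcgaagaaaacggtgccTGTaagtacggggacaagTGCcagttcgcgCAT
Zfp36l2, codons 161 to 180: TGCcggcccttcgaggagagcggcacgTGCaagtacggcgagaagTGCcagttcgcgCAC
The second finger follows in each member after the same spacing.
Zfp36, codons 139 to 158: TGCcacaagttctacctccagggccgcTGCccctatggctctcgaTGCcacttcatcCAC
Zfp36l1, codons 158 to 177: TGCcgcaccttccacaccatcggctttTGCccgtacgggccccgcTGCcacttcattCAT
Zfp36l2, codons 199 to 218: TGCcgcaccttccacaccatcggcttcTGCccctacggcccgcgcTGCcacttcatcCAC
Over the 174 bases from the first finger to the end of the second, Zfp36l1 and Zfp36l2 were identical at 87.4% of positions, whereas Zfp36 matched Zfp36l1 at 67.8% and Zfp36l2 at 69% of them. Within these 174 bases the longest identical run between any pair of members was 32 bases, shorter than the 58-base reads. Over the whole transcripts, no 58-base window was shared between members. Their counts can therefore be told apart as far as exact 58-base matches go. The mapping of the study also allowed mismatches, which exact matches do not cover.

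The mRNAs of the 3 members themselves carry the element that the family binds. The 3′ untranslated region of each held 3 copies of the heptamer UAUUUAU and 1 copy of the nonamer UUAUUUAUU, which contains the heptamer. The copy of the nonamer in each member is shown in a window of 30 bases, with the heptamer inside it in capitals, since it is the site that the 3 mRNAs have in common.
Zfp36, chr7:28376950-28376979, minus strand: uaugacgacuuUAUUUAUuguauuaagauu
Zfp36l1, chr12:80108166-80108195, minus strand: aacuguuggauUAUUUAUuuuagaaauucu
Zfp36l2, chr17:84184913-84184942, minus strand: acuauuuaacuUAUUUAUuaucuugugaaa
The heptamers in these windows begin 590, 1405 and 822 bases after the stop codon, respectively. The heptamer, searched on the mRNA strand, was found in 25.4% and the nonamer in 6.66% of the 3′ untranslated regions of 18932 mRNAs of the table. Among regions of about the member's own length, the nonamer was found in 4.31% of 2368 for Zfp36, 9.22% of 2626 for Zfp36l1 and 9.12% of 2620 for Zfp36l2. The heptamer was found in 20.3%, 38.3% and 38% of these regions of like length for Zfp36, Zfp36l1 and Zfp36l2. The pentamer AUUUA, which every heptamer contains, occurred 3, 9 and 5 times. Regions of like length had medians of 1, 3 and 3 pentamers, and 19%, 5.18% and 27.6% of them held as many or more. The heptamers of Zfp36 lay close together, beginning 575, 590 and 615 bases after the stop codon, while those of Zfp36l1 began after 1150, 1191 and 1405 bases and those of Zfp36l2 after 822, 870 and 1056 bases. A match describes the letters and is not evidence of binding.

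**Figure D1:**
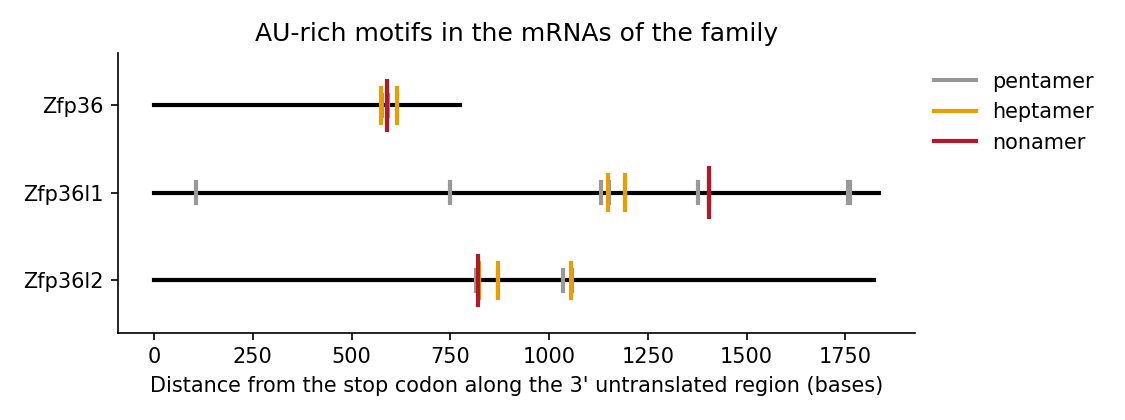
Positions of AU-rich motifs along the 3′ untranslated region of each member (x axis: distance from the stop codon in bases; black lines: the region's length of 774, 1835 and 1822 bases). Grey, orange and red marks stand for pentamers, heptamers and nonamers, and a shorter motif inside a longer one lies under its mark. Each mRNA has 3 heptamers, of which 1 is part of a nonamer.

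The 250 bases before the RefSeq start of Zfp36 and Zfp36l1 (GRCm38.p6) were searched on both strands for motifs of factors that act early after stimulation. TATAAA, the letters of the TATA box, was searched as well and is not a motif of such a factor. The matches are shown because both mRNAs moved with time, with the motif in capitals.
Zfp36, EGR motif GCGGGGGCG, chr7:28379314-28379343, minus strand: gagctacgccGCGGGGGCGcgtcccggaag
Zfp36, CArG box of serum response factor, chr7:28379267-28379296, minus strand: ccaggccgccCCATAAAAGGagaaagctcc
Zfp36l1, AP-1 motif TGANTCA, chr12:80113124-80113153, minus strand: gaccgcatggcTGATTCAacctcagtgtca
Zfp36l1, TATAAA, chr12:80113025-80113054, minus strand: cccaccaaatctTATAAAttgggctttgcg
Of 32851 promoters, 2.57% held the EGR motif, 1.47% a CArG box, 6.75% the AP-1 motif and 12.4% TATAAA. The 2 promoters had no match in common, and neither held the letters searched for NF-κB (in 3.9% of promoters) or the cAMP response element TGACGTCA (1.55%). Zfp36l2 has no entry in the promoter table used. Here too a match describes the letters and is not evidence of binding.

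Total counts ranged from 100250892 to 159077286 per library, and libraries were compared after division by median-of-ratios size factors of 0.71 to 1.23 (normalized counts). The ribosomal RNA precursor Rn45s took 8.18% to 9.11% of the counts at 0, 30, 60 and 120 min and 13% to 20.5% at 15, 45, 75 and 90 min, so the courses of the members are also given within these 2 sets of libraries, and calls at 45 min of other genes are set beside the 30 and 60 min libraries. All 10 macrophage markers checked, among them the M-CSF receptor gene Csf1r and the lysosomal Cd68, had at least 10 counts in every library. They summed to 5929 to 7128 counts per 1e6 counts of the library (cpm). Mrc1 was the exception in level, with only 19 to 39 counts, while the next lowest, Tlr4, had 4411 to 8780. The highest single count was 13 among the T cell and 16 among the B cell markers, so Mrc1 was close to these. Markers of T cells summed to 0.0662 to 0.211 cpm and markers of B cells to 0.0215 to 0.119 cpm. The 3 epithelial markers were at 0 in every library, which allows at most 3 counts each per library, and the hepatocyte and fibroblast markers had at most 1 count.

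Zfp36 mRNA rose steeply and transiently. In the order of the 8 time points from 0 to 120 min, it had 3708, 10501, 69170, 74779, 24636, 8025, 10765 and 19579 counts. The corresponding normalized counts were 3172, 9993, 56641, 84459, 21936, 11301, 13667 and 15868. Every stimulated library was above the unstimulated one, and the 30 and 45 min libraries stood far above the other 6. In bulk RNA, fewer or more cells with the mRNA and less or more of it per cell cannot be told apart. The increase was already 3.15-fold at 15 min (95% interval 3.03 to 3.27) and reached 26.6-fold at 45 min (25.8 to 27.5), a log2 ratio of 4.73. Only 11 of the 12166 genes had a larger ratio to 0 min at 30 min, and 21 had a larger one at 45 min. The steepest step was the 5.67-fold rise between 15 and 30 min (5.55 to 5.79).

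The decline of Zfp36 followed within the next interval. Between 45 and 60 min its normalized count decreased 3.85-fold (3.79 to 3.91), and between 60 and 75 min a further 1.94-fold (1.89 to 1.99). The level at 75 min was close to that at 15 min, with a ratio of 1.13 (1.1 to 1.16). From there it was 1.21 times higher at 90 min (1.17 to 1.24) and again 1.16 times higher at 120 min (1.13 to 1.19). At 120 min Zfp36 was still 5-fold above 0 min (4.83 to 5.18), but 226 genes then had a larger ratio.

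Zfp36l1 mRNA followed Zfp36 in time but with a much smaller amplitude. It had 1110, 1351, 2052, 2151, 1796, 898, 905 and 1231 counts from 0 to 120 min, which correspond to 950, 1286, 1680, 2429, 1599, 1265, 1149 and 998 normalized counts. The level was highest at 45 min, at 2.56-fold (2.38 to 2.75), a log2 ratio of 1.36, and 228 genes had a larger ratio at that time. Unlike Zfp36, it returned to its starting level, with a ratio to 0 min of 1.05 at 120 min (0.968 to 1.14), where the interval includes no change. Its decline was also shallower, with a decrease of 1.52-fold between 45 and 60 min (1.43 to 1.62) and of 2.43-fold between 45 and 120 min (2.27 to 2.61).

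Zfp36l2 mRNA ended below its starting level, unlike Zfp36. It had 10314, 12193, 12614, 9947, 5828, 2691, 2377 and 2779 counts, and its normalized counts were 8824, 11603, 10329, 11235, 5189, 3789, 3018 and 2252. Up to 45 min the level stayed between 1.17-fold (1.14 to 1.2) and 1.31-fold (1.28 to 1.35) of that at 0 min, inside the log2 limit of 0.5 used here for a change. Between 45 and 60 min it decreased 2.17-fold (2.1 to 2.24), and it went on decreasing in each later library, by 1.37-fold to 75 min, 1.26-fold to 90 min and 1.34-fold to 120 min. At 120 min the ratio to 0 min was 0.255 (0.245 to 0.266), a log2 ratio of -1.97, and 123 genes had a lower ratio. Between neighbouring libraries, the largest step down of each of the 3 members thus fell in the same interval, between 45 and 60 min. These 2 libraries differ in their share of Rn45s (16.6% and 8.27%). Between the 30 and 60 min libraries, which have a like share, Zfp36l1 had a ratio of 0.952 (0.893 to 1.01), so its timing is less sure. Zfp36 and Zfp36l2 had already moved apart between 15 and 30 min, with ratios of 5.67 and 0.89 over that step. From 75 to 120 min Zfp36 increased 1.4-fold, while Zfp36l2 (ratio 0.594) and Zfp36l1 (0.789) decreased further.

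**Figure D2:**
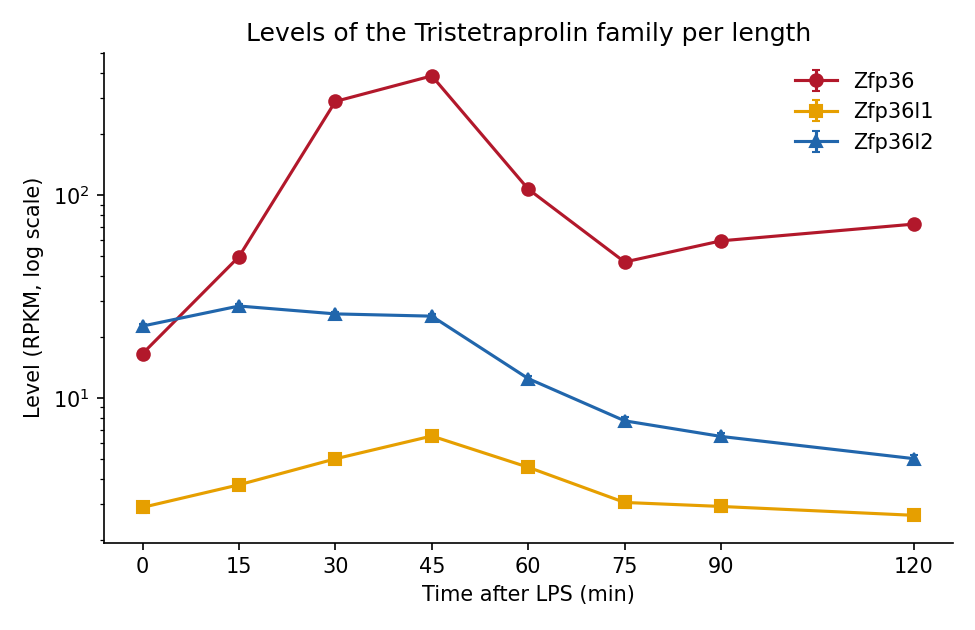
Levels of the 3 members per length in each library (y axis: reads per kilobase and 1e6 counts, rpkm, on a log scale; x axis: minutes after LPS; bars: exact Poisson 95% intervals, mostly smaller than the symbols; 1 library per time point). Zfp36 climbs from 16.6 to 387.5 rpkm at 45 min, Zfp36l2 falls from 22.7 to 5.03 rpkm and Zfp36l1 stays the lowest of the members in every library.

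**Figure D3:**
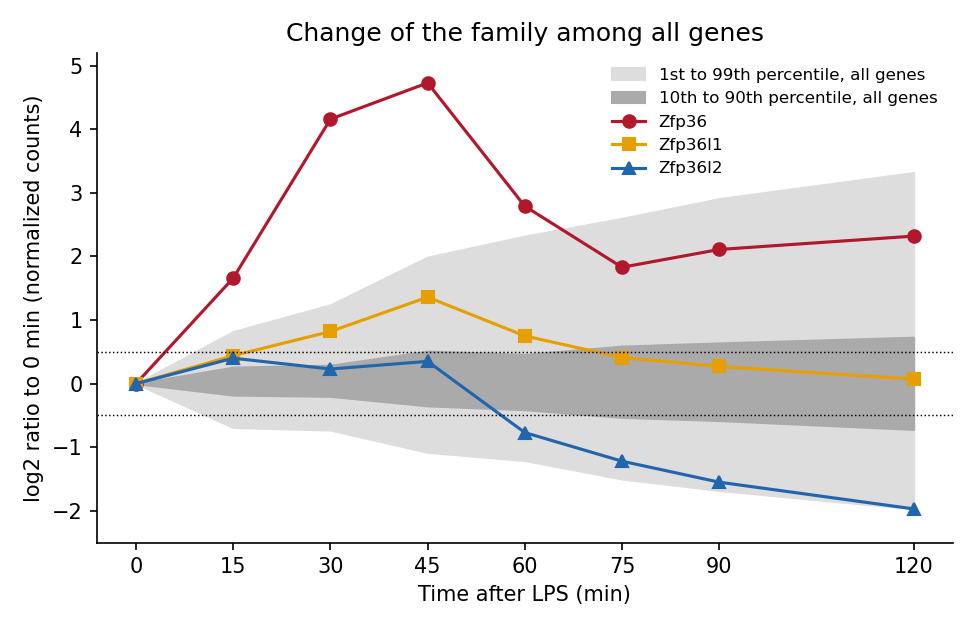
log2 ratio of normalized counts to 0 min for the 3 members (lines) and for all 12166 genes that passed the filter on low values (dark grey: 10th to 90th percentile; light grey: 1st to 99th percentile; dotted lines: log2 limits of -0.5 and 0.5). Zfp36 lies above the 99th percentile up to 60 min, and Zfp36l2 is at the 1st percentile, -1.97, at 120 min.

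With a log2 ratio beyond 0.5 as the limit for a change, 2 of the 3 members (Zfp36 and Zfp36l1) were higher at 45 min, where 10.3% of all 12166 genes were higher, and 0 members were lower, against 5.71% of all genes. At 120 min 1 member (Zfp36) was higher, against 16.8% of all genes, and 1 (Zfp36l2) was lower, against 15.7%. These shares depend on the scale: with total counts as the scale, which lowers every log2 ratio by 0.19 at 45 min and by 0.2 at 120 min, the numbers of higher and lower genes at 45 min were 808 and 1455 in place of 1252 and 695, and those at 120 min 1298 and 3074 in place of 2040 and 1915. With Rn45s left out of the total, they were 1322 and 3013 at 120 min. The calls of the members at these 2 times were the same with each scale.

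The study grouped genes by their maxima and minima, calling each from a pair of libraries with a negative binomial test and the log2 limit of 0.5. Repeated here, these rules compare libraries and not conditions. Zfp36 (maximum at 45 min, minimum at 75 min) and Zfp36l1 (maximum at 45 min, minimum at 120 min) fell into the group with an early maximum followed by a minimum, called g3, which took 141 or 0.609% of all 23143 genes. That number depends on the 45 min library and on the threshold, with 33 genes in g3 without this library, 35 with Benjamini-Hochberg adjustment and 24 with the 0, 30, 60 and 120 min libraries alone. Zfp36l2 fell into the group with a late first minimum, called g2, with 1250 genes or 5.4%, and with 485 genes after Benjamini-Hochberg adjustment. The 23143 genes include genes without counts, which cannot be called, so both shares would be higher among counted genes alone. Between 14353 and 15009 genes had a count in a given library. Without the 45 min library, all 3 members kept their group and the maximum of Zfp36 and Zfp36l1 moved to 30 min. With the 0, 30, 60 and 120 min libraries alone, Zfp36l1 had a maximum at 30 min but no later minimum, and so left g3.

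Within each set of libraries with a like share of Rn45s, Zfp36 kept its rise and decline and Zfp36l2 its decrease. For Zfp36l1 the time of the decline differed between the sets. In the set with the lower share, Zfp36 was 17.9-fold, 6.92-fold and 5-fold above 0 min at 30, 60 and 120 min, Zfp36l1 1.77-fold, 1.68-fold and 1.05-fold, and Zfp36l2 1.17-fold, 0.588-fold and 0.255-fold. For Zfp36l1 the 30 and 60 min libraries could not be told apart, with a ratio of 0.952 (0.893 to 1.01). Its decrease in this set came between 60 and 120 min, with a ratio of 0.624 (0.58 to 0.671). In the set with the higher share, Zfp36 rose 8.45-fold from 15 to 45 min (8.28 to 8.63) and then decreased 7.47-fold to 75 min (7.3 to 7.65). Over the same steps Zfp36l1 rose 1.89-fold (1.76 to 2.02) and decreased 1.92-fold (1.78 to 2.08). Zfp36l2 had a ratio of 0.968 from 15 to 45 min (0.943 to 0.994) and decreased 2.97-fold to 75 min (2.84 to 3.09).

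The makeup of the family can be read within each library, without any scaling between libraries, from the reads per length of each member. Zfp36l2 was the most abundant member at 0 min, with 53.8% of the summed level per length against 39.3% for Zfp36 and 6.87% for Zfp36l1. The level of Zfp36 per length was then 0.731 times that of Zfp36l2 (0.704 to 0.759). The order had turned by 15 min, when Zfp36 held 60.8%, Zfp36l2 34.7% and Zfp36l1 4.56%. How clear this turn is depends on the length used. At 15 min the level of Zfp36 was 1.33 times that of Zfp36l2 with the coding length and 1.09 times with the longest annotated transcript. In the 6 later libraries, in order of time, the share of Zfp36 was 90.3%, 92.4%, 86.3%, 81.3%, 86.4% and 90.4%.

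The ratio of Zfp36 to Zfp36l2 per length took the values 0.731, 1.75, 11.2, 15.3, 8.6, 6.06, 9.21 and 14.3 over the 8 libraries in order of time. These values depend on the length used for Zfp36: with the longest annotated transcript the ratio was 0.457, 9.55 and 8.95 at 0, 45 and 120 min. Relative to 0 min the length cancels. The ratio was 20.9 times its starting value at 45 min and 19.6 times at 120 min, although the level of Zfp36 itself was 5.32-fold lower at 120 min than at 45 min (5.24 to 5.41). The summed level of the family, in normalized counts per kilobase, was 4722 before stimulation, reached 53514 at 45 min (11.3-fold) and was 10280 in the last library (2.18-fold).

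The 2 members with the more alike zinc fingers also changed their balance. Per length, Zfp36l2 exceeded Zfp36l1 by 7.83-fold before stimulation and by 7.61, 5.18, 3.9, 2.74, 2.53, 2.21 and 1.9-fold in the 7 stimulated libraries in order of time. The ratio was lower in each library than in the one before it. Neighbouring values at 0 and 15 min (intervals 7.36 to 8.34 and 7.19 to 8.05), 60 and 75 min, and 75 and 90 min did not differ beyond their intervals. The share of Zfp36l1 was 1.55% at 45 min and 3.32% at 120 min, and it is sensitive to the length used: with the coding length it was 2.43% and 5.14%, and with the longest annotated transcript 2.37% and 5.01%.

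**Figure D4:**
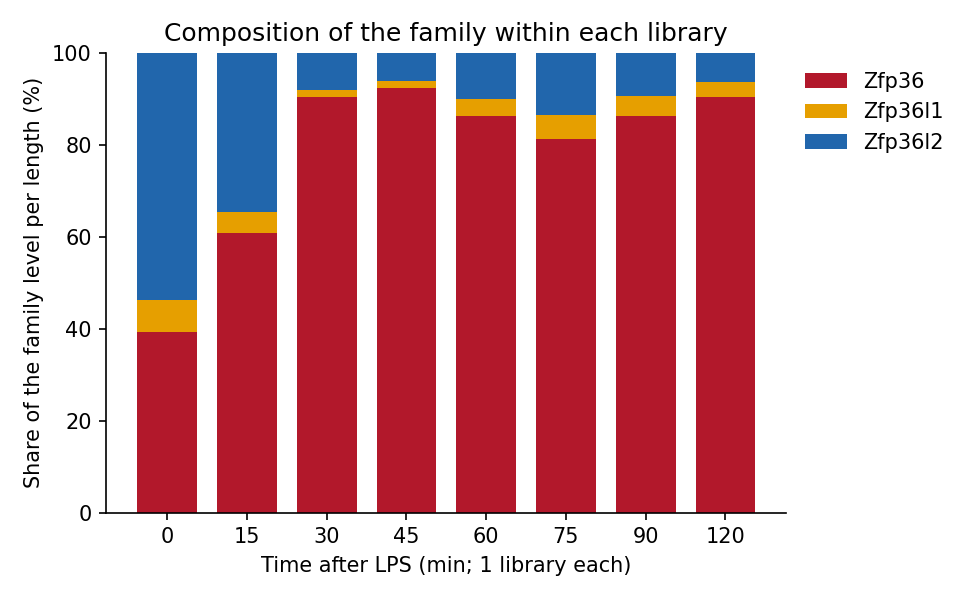
Share of each member in the summed level of the family per length, within each of the 8 libraries (y axis: percent; x axis: minutes after LPS). The share of Zfp36l2 shrinks from 53.8% at 0 min to 6.04% at 45 min and 6.31% at 120 min, and that of Zfp36 grows from 39.3% to 92.4% and 90.4%.

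Antisense transcripts overlap all 3 genes in the GENCODE annotation: Gm44710 at Zfp36, Gm26669 at Zfp36l1 and AC132455.1 at Zfp36l2. The library kit keeps the strand, but the counting is not stated to use it, so reads from windows that a member shares with its antisense partner cannot be told apart. Of the 58-base windows of the members, 0 of 1708 in Zfp36 occurred in another annotated transcript on either strand, against 1632 of 2927 in Zfp36l1 (1560 of them on the reverse strand of Gm26669 and 72 in the pseudogene Zfp36l1-ps) and 48 of 3473 in Zfp36l2. Among the members, the counts of Zfp36l1 thus have the largest share of windows that could hold such reads.

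The genes whose log2 normalized counts ran most alike to each member over the 8 libraries were ranked by Pearson's r among 10493 other genes averaging 100 or more normalized counts. The points of each correlation share their libraries, so r is a description of likeness in shape. For Zfp36 these were Ppp1r15a (r = 0.989), which encodes the GADD34 subunit of the eIF2α phosphatase, H2-Q5 (0.976), a class I-like histocompatibility gene, Nfkbid (0.971), an atypical IκB, Btg2 (0.954), an antiproliferative protein that binds CCR4-NOT, and 2310014L17Rik (0.952). Ppp1r15a, with 78032 and 78094 normalized counts in the 30 and 45 min libraries, had its late low point at 75 min as Zfp36 did (8503). H2-Q5 had a like shape at a small amplitude, 2.35-fold at 45 min against 26.6-fold for Zfp36.

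For Zfp36l1 the genes most alike were Ncapd3 (r = 0.977), a condensin subunit, Pnrc1 (0.975), a proline-rich nuclear receptor coactivator, Cep192 (0.972), a centrosomal protein, Arid2 (0.972), a subunit of a SWI/SNF chromatin remodeller, and Rev3l (0.967), the catalytic subunit of DNA polymerase ζ. Of these, only Pnrc1 had an amplitude like that of Zfp36l1, with 2.7-fold at 45 min and 0.974-fold at 120 min, and the others reached 1.11-fold to 1.6-fold at 45 min. For Zfp36l2 they were March1 (r = 0.997), a ubiquitin ligase for MHC class II, Ptpn21 (0.997), a tyrosine phosphatase, Phf17 (0.995), a subunit of a histone acetyltransferase complex, Tbc1d24 (0.995) and Dlg4 (0.993), a synaptic scaffold protein. March1 decreased to 0.204-fold at 120 min, close to the 0.255-fold of Zfp36l2, and Phf17 to 0.487-fold, while Ptpn21, Tbc1d24 and Dlg4 lay between 0.677-fold and 0.821-fold. Between the members, r was 0.875 for Zfp36 and Zfp36l1, 0.522 for Zfp36l1 and Zfp36l2 and 0.221 for Zfp36 and Zfp36l2.

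Most of the mRNAs known as targets of Tristetraprolin were higher than at 0 min both when Zfp36 was at its maximum and later. Of 18 listed targets, 17 passed the filter on low values, and of these 14 were higher and 1 lower at 45 min, and 16 higher and 1 lower at 120 min, beside 10.3% higher and 5.71% lower and 16.8% and 15.7% of all genes. Of the 17, 7 (Csf2, Il6, Il10, Il23a, Il1a, Lif and Nos2) had under 10 normalized counts at 0 min and passed through later libraries where they were high, so they had to differ. Among the other 10, 9 were higher and 0 lower at 45 min, and 9 higher and 1 lower at 120 min, with medians of 2.56 and 4.86. All 14 targets higher at 45 min were also higher at 30 or 60 min, as were 62% of all 1252 genes higher at 45 min. Over the 17, the median log2 ratio was 2.49 at 45 min and 5.33 at 120 min, against 0 and -0.01 for all genes tested. Leaving out Csf2, which had no count at 0 min, the medians were 2.56 and 5.27. The list was put together with the results of these data known and holds genes that are themselves known LPS response genes. The heptamer found in the mRNAs of the family was present in 16 of the 18 and the nonamer in 9 of them. Of all 18932 mRNAs searched, 25.4% held the heptamer and 6.66% the nonamer. The family binds AU-rich elements, so a list of its known targets is not independent of these motifs.

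Among the targets with over 10 counts at 0 min, the largest ratios at 120 min were those of the cytokine Il1b (2808-fold, 2098 to 3850) and the chemokine Cxcl2 (1032-fold, 888 to 1207), which were 50.4-fold and 432-fold higher at 45 min. The cytokines Il1a (3157-fold, 1353 to 9724), Lif (3012-fold, 1176 to 11057) and Il6 (1139-fold, 204 to 45014) rest on 5, 4 and 1 counts at 0 min, and their order is not fixed by these counts. The call of Il10 at 45 min rests on 5 counts at 0 min (2.11-fold, 0.609 to 8.2). Csf2, the growth factor GM-CSF, was counted as higher at 45 min through the pseudocount alone, with 2 counts, and had 241 at 120 min, where it was at least 76.1-fold higher than the 3 counts that a count of 0 allows in the library. Ptgs2, the inducible cyclooxygenase, was 55-fold higher at 120 min, and Nos2, the inducible nitric oxide synthase, had a log2 ratio of 5.41 there after -0.7 at 45 min, where it rests on 5 counts at 0 min and a normalized count of 2.26.

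Tnf and Fos were singled out among the other targets after their values were seen. Tnf had 8922, 29548, 188930, 270564, 84755, 108231, 196879 and 359742 normalized counts over the 8 libraries in order of time. It decreased in the same interval as Zfp36, between 45 and 60 min, but its low point came at 60 min, when Zfp36 was still on its way down to 75 min. Fos, a subunit of AP-1, was the target that was lower at 120 min, with 7734 normalized counts in the unstimulated library, 47988 at 45 min, and 1683 and 1854 in the 75 and 120 min libraries. Of the 17 targets tested, 3 had their highest level at 45 min, as Zfp36 did, 12 at 120 min and 2 at 90 min. Among all 12166 genes the highest level was at 45 min for 12.9% and at 120 min for 26%.

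Listed targets of ZFP36L1 and ZFP36L2 showed smaller ratios. Of 9 listed, 8 were tested, of which 2 were higher and 0 lower at 45 min, with a median log2 ratio of 0.25, and 4 higher and 3 lower at 120 min, with a median of 0.26. Of all genes, 10.3% were higher at 45 min, and 16.8% were higher and 15.7% lower at 120 min, so with 8 genes these counts say little about the list. Both genes higher at 45 min were also higher at 30 or 60 min. Among the higher ones at 120 min were Cdk6 (2.49-fold), a G1 kinase, Vegfa (1.85-fold), the endothelial growth factor, and Hif1a (1.73-fold), the hypoxia factor. The lower ones were the cyclin D1 gene Ccnd1 (0.506-fold), Notch1 (0.611-fold) and the survival gene Bcl2 (0.649-fold).

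The CCR4-NOT complex is recruited by the family to shorten the poly(A) tail. Of its 15 subunits and associated proteins tested, 4 were higher and 0 lower at 45 min, and 4 higher and 1 lower at 120 min, with median log2 ratios of 0.35 and 0.26. The counts at 120 min are near the shares of all genes, 16.8% higher and 15.7% lower, and at 45 min 10.3% of all genes were higher. The adaptor Btg2, one of the genes most like Zfp36 in shape, was 30.4-fold higher at 45 min and 6.62-fold at 120 min, its relative Btg1 1.71-fold and 2.93-fold, and the adaptor Tob1 1.59-fold at 45 min but 0.616-fold at 120 min. Tob1 and the subunit Cnot6l (1.49-fold at 45 min) were inside the limit in the 30 and 60 min libraries, and Cnot7 and Cnot4 were 1.6-fold and 1.54-fold higher at 120 min. With total counts as the scale, 2 genes were higher at 45 min, and 2 higher and 2 lower at 120 min.

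Of 9 decapping and 5′ decay factors, 3 were higher at 45 min and 5 at 120 min, 0 were lower at either time, and the median log2 ratios were 0.31 and 0.5, where 10.3% and 16.8% of all genes were higher. The helicase Ddx6 was 1.88-fold higher at 45 min and 1.97-fold at 120 min, its partner Patl1 1.66-fold and 1.67-fold, and the exonuclease Xrn1 1.69-fold at 45 min. None of these 3 genes was past the limit in the 30 and 60 min libraries, where the share of Rn45s was lower than at 45 min, and Xrn1 was at 1.27-fold and 1.24-fold there. The decapping factors Dcp1a, Edc4 and Dcp2 lay between 1.42-fold and 1.5-fold at 120 min, near the limit of 1.41-fold, and with either total count as the scale 2 genes were higher at 120 min.

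Of 17 kinases, phosphatases and 14-3-3 proteins that act on Tristetraprolin, 2 were higher and 0 lower at 45 min, and 4 higher and 3 lower at 120 min, with medians of 0.07 and 0.23. These counts are near the shares of all genes (10.3% higher at 45 min, 16.8% higher and 15.7% lower at 120 min). Dusp1, the phosphatase that inactivates p38 MAP kinase, shared its highest library with Zfp36, at 76.6-fold, and was 27.6-fold higher at 120 min. The p38 gene Mapk14 was at 1.11-fold at 45 min and 0.56-fold at 120 min, and its activator Map2k6 was at 0.592-fold at 120 min. The other MAP kinase kinase of the list, Map2k3, was at 1.33-fold at 120 min, inside the limit. Mapkapk3 had 24 counts at 0 min and a ratio of 0.197 at 120 min. Mapkapk2, the kinase that phosphorylates Tristetraprolin, was at 1.05-fold at 45 min and 1.52-fold at 120 min, when the 14-3-3 genes Ywhag and Ywhah were 1.71-fold and 1.64-fold higher. At 45 min Ywhag was 1.56-fold higher, which it was not in the 30 min (1.11-fold) and 60 min libraries, and with total counts as the scale 1 gene of this list was higher there.

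Among 12 genes of other proteins that bind AU-rich or related elements, 4 were higher at 45 min and 5 at 120 min, 0 were lower at either time, and the medians were 0.39 and 0.48, where 10.3% and 16.8% of all genes were higher. The endonuclease gene Zc3h12a (Regnase-1) increased from 586 normalized counts to 4254 at 45 min, then 6282 at 75 min and 7543 in the last library, without the decline of Zfp36. The Roquin genes Rc3h1 and Rc3h2 were 3.66-fold and 2.26-fold higher at 120 min, Celf1 1.62-fold, and Hnrnpd, which encodes AUF1, 1.53-fold after 1.7-fold at 45 min. Pcbp1 was 1.56-fold higher at 45 min, but at 1.12-fold and 1.16-fold in the 30 and 60 min libraries, and Hnrnpd at 1.33-fold and 1.29-fold, all inside the limit. The part of the Rn45s share in these calls was not tested. With total counts as the scale, 3 were higher at 120 min.

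**Figure D5:**
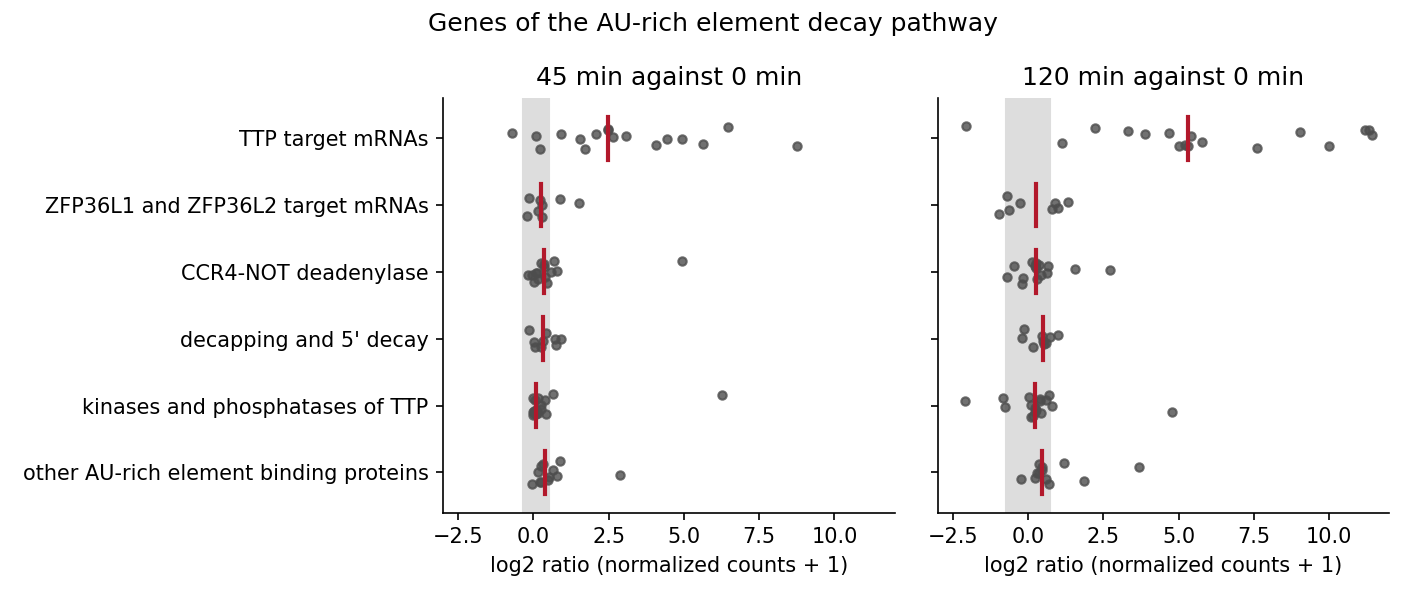
log2 ratio to 0 min, with a pseudocount of 1 normalized count, of each tested gene of the 6 lists at 45 min (left) and 120 min (right). Points are genes, red lines the median of each list, and grey bands the 10th to 90th percentile of all 12166 genes tested. The targets of Tristetraprolin are spread widely, with medians of 2.49 and 5.33, and most genes of the other lists lie in or near the band. Of the 17 targets tested, 7 had under 10 normalized counts at 0 min and passed the filter through later libraries. The medians of the other 10 were 2.56 and 4.86.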

How the data were processed

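The authors deposited unnormalized counts of reads for each gene symbol, with 1 column per library. Per their methods, 58-base reads were mapped with Bowtie (version not given in the sources used here) to RefSeq transcripts of mm10, and those that fit several gene symbols were dropped. The submitters' processing notes name CASAVA 1.8.2 and DESeq 1.10.1. Size factors by the median of ratios set the scale (scipy 1.17.1, pandas 2.3.3 and numpy 2.4.6 in Python 3.11.15). Depth was 100250892 to 159077286 counts. Ratios carry exact conditional binomial and rpkm values exact Poisson 95% intervals. PCR duplicates are not marked, so intervals cover counting error only. A change was a log2 ratio beyond 0.5, with a pseudocount of 1, among genes averaging 10 or more normalized counts. Pattern groups used edgeR 4.0.16 in R 4.3.3 (exact test, blind parametric dispersion, unadjusted p limit of 0.05). The code was tried on simulated counts with less spread than was fitted here and with steps well above the limit. That trial checks the code and does not show how sure the groups are in these data. A quasi-likelihood test cannot be made with 1 library per time point, since it leaves no residual degrees of freedom.

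Lengths are the 58-base windows of the GENCODE vM21 transcript matched by RefSeq accession, cut to the RefSeq gene span (1708, 2927 and 3473). Motifs were searched in GENCODE 3′ untranslated regions and RefSeq promoters. Cnot11 was matched by an older symbol. Named genes are the members, genes past the limit at 45 or 120 min in each list (largest first, up to 8), the 5 genes most alike to each member, the nearest counted neighbours and the markers. The members and lists were chosen with earlier results of these data known. Alternatives were other scales, filters, limits, dispersions, lengths, and libraries left out; the whole GENCODE transcript as length and size factors from rows with an mRNA accession, a limit of 10 normalized counts at 0 min and calls at 45 min that also hold at 30 or 60 min were added after seeing the data.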

Additional observations from a re-analysis of the deposited data

How the results depend on the processing

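Each time point has 1 library, so spread between cultures is unknown. No paired analysis was possible because no time point has a second library. No log2 ratio beyond 0.5 of a member changed sign under any alternative run; the uncalled ratio of Zfp36l1 at 120 min, 0.07, was -0.13 with total counts. With total counts as the scale, the log2 ratio at 45 min was 4.55 for Zfp36 and 1.17 for Zfp36l1, and that of Zfp36l2 at 120 min was -2.17; with total counts without Rn45s, Zfp36 gave 4.68 and Zfp36l2 -2.16. TMM factors, a pseudocount of 1 and size factors from rows with an mRNA accession left all 3 within their counting intervals. With the 0, 30, 60 and 120 min libraries alone, 2 of the 3 members kept their pattern group; each library left out, Benjamini-Hochberg adjustment, a log2 limit of 1 and the trended dispersion kept all 3. At 0, 45 and 120 min, the share of Zfp36 per length was 28.8%, 88.4% and 85.4% with the longest annotated transcript, which for these genes is the whole GENCODE transcript, and 32.5%, 89.8% and 86.9% with the coding length. For Zfp36l1 the shares were 8.04%, 2.37% and 5.01%, and 9.15%, 2.43% and 5.14%, and for Zfp36l2 63.1%, 9.25% and 9.54%, and 58.4%, 7.72% and 7.97%. Of all genes at 45 min, total counts gave 808 higher and 1455 lower, against 2436 and 1784 with no filter on the mean, and 391 and 155 with a log2 limit of 1, and 420 were lower with a mean of at least 100. At 120 min the numbers were 1298 and 3074 with total counts, 1322 and 3013 without Rn45s, 3565 and 3022 with no filter, and 765 and 720 with a limit of 1. With total counts, 2 CCR4-NOT genes were higher at 45 min and 2 higher and 2 lower at 120 min, 2 decapping genes and 3 other AU-rich element binding proteins were higher at 120 min, and 1 kinase or phosphatase gene was higher at 45 min; without Rn45s, the CCR4-NOT and decapping counts at 120 min were the same as with total counts. Both added after seeing the data, a limit of 10 normalized counts at 0 min left 9 targets of Tristetraprolin higher at each time and 0 lower at 45 min, and of the genes higher at 45 min, 2 CCR4-NOT genes, 0 decapping genes, 1 kinase or phosphatase gene and 2 other binding proteins were higher also at 30 or 60 min. For changes under scales and lengths, the alternative's own construction is the cause; for the libraries left out, the cause was not tested.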

Other observations

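Among the genes that were counted, those annotated nearest to the members on each side stayed inside the log2 limit of 0.5 at 45 and 120 min, other than Haao at 120 min. Next to Zfp36, Plekhg2 (4185 bases away) was at 1.19-fold of its 0 min level at 45 min and 0.995-fold at 120 min, and the Mediator subunit gene Med29 (6918 bases away) at 0.877-fold and 0.864-fold. Thada, 2129 bases from Zfp36l2, was at 1.31-fold at 45 min and 1.36-fold at 120 min, where Zfp36l2 was at 0.255-fold, and Haao, 335961 bases away on the other side, was at 0.842-fold and 0.67-fold. On the sides of Zfp36l1, 2310015A10Rik (7533 bases away) was at 0.891-fold and 0.733-fold, and the recombination gene Rad51b (293070 bases away) at 0.981-fold and 1.02-fold. Zfp36l3, a further gene of the family in mouse that is no member here, had 15 to 64 counts in the 8 libraries, where Zfp36l1, the lowest member, had 898 to 2151.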
